A study of Rattus norvegicus with 2 samples.

Results

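The cathepsins are the main proteases of the lysosome, and the cystatins are natural inhibitors of the cysteine proteases among them. The group described here held 10 rat genes of 15565 genes named on the arrays: the cathepsins Ctsa, Ctsb, Ctsc, Ctsd, Ctsh, Ctsl, Ctss and Ctsz and the cystatins Cst3 and Cstb. It was chosen by gene name, and each gene was read by the target of its RefSeq record, with Ctsl listed under its older symbol Ctsl1 in the authors' files. All 10 genes had 1 target of 5 probes, so the arrays hold no second reading of any of them.

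RNA came from cells labelled AR42J, a line from a tumour of the rat exocrine pancreas, grown in Ham's F12K medium with serum. Control cells were left untreated. The other cells received taurolithocholic acid 3-sulfate (TLC-S), a sulfated bile acid, at 200 µM for 20 min. Each condition was read on 1 one-colour array (Cy3), so every ratio below compares 2 arrays, has no replicate check and carries no p-value. "Higher" and "lower" describe TLC-S relative to control on these arrays. With 1 array a group, precision is limited by that number. In RNA from a whole culture, fewer cells that express a gene and less of its RNA per cell cannot be told apart.

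As background, most cathepsins are cysteine proteases of the papain fold, whereas Ctsd is an aspartic protease and Ctsa a serine carboxypeptidase. They are made as inactive precursors, are tagged with mannose 6-phosphate and mature in the acid of the lysosome. In the exocrine pancreas the family is known for its meeting with trypsinogen: cathepsin B cleaves trypsinogen to active trypsin, and cathepsin L cuts it to an inactive form. Cystatin C (Cst3) is a secreted inhibitor of papain-type cathepsins, and cystatin B (Cstb) is an inhibitor of the cytosol and nucleus.

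Values are the authors' RMA intensities, a summary over the probes of a target on a linear scale. Random-sequence probes read 44.7 on the control array and 40.5 on the TLC-S array, the median target 94.5 and 91.3. An intensity of 100 on both arrays was reached by 10165 genes (65.3%), and these had a median log2 ratio (TLC-S over control) of 0.25. Of them, 66.3% lay above 0 and 33.7% below. A loess fit of the log2 ratio against signal, when subtracted, moved that median by 0.25 and the median of all genes by 0.14. Ratios are therefore given beside the loess-adjusted value, which is the ratio relative to genes of like signal.

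The labelled cell type was checked against its markers and those of other types. Of 19 acinar secretory genes, 0 reached 100 on both arrays: they ran from 30.9 to 117 in control and from 34.8 to 94.3 in TLC-S, near the random probes. The trypsinogens, which acinar cells also secrete and which were kept in a list of their own, went the other way: Prss1, Prss2 and Prss3 were well above 100 on both arrays, with the values given below. Among pan-leukocyte genes, 18 of 19 reached 100 on both (medians of these 960 in control and 1181 in TLC-S), as did 6 of 7 B lymphocyte genes (317 and 201), 3 of 13 macrophage and myeloid genes, 2 of 12 duct and epithelial genes and 0 of 9 stellate and fibroblast genes.

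The 10 genes did not move together. Of the 8 at 100 or more on both arrays, 3 read higher (Ctsb, Ctsc, Ctsz) and 5 lower (Ctsd, Ctsl, Ctss, Cst3, Cstb). The shares of the 10165 genes were 66.3% above 0 and 33.7% below. After loess subtraction the counts became 2 and 6 because Ctsb changed sign, and the median of the 10165 genes was about 0. At a limit of 1.5-fold, 1 of the 8 was higher and 3 were lower. Of the 10165 genes, 27.8% passed that limit upward and 9.62% downward, shares that became 15.2% and 16.4% after loess subtraction. After loess subtraction the 8 still had 1 higher and 3 lower at that limit. At 2-fold, 1 of the 8 (Ctsc) was higher and 0 were lower, against 10% and 4.38% of the 10165 genes. After loess subtraction 0 were higher and 2 lower (Ctsl and Ctss), against 4.58% and 6.92%. All of these genes kept their direction and crossed the limit. Ctsc moved from 2.27-fold to 1.83-fold, Ctsl from 1.96-fold to 2.39-fold and Ctss from 1.73-fold to 2.01-fold. Over all 15565 genes, dim ones included, the shares were 23.5% upward and 13.1% downward at 1.5-fold, and 8.67% and 5.38% at 2-fold. The median log2 ratio of the 8 was -0.35, the same as that of all 10, against 0.25 for the 10165 genes; after loess subtraction the 8 had -0.46, against about 0 by construction.

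**Figure D1:**
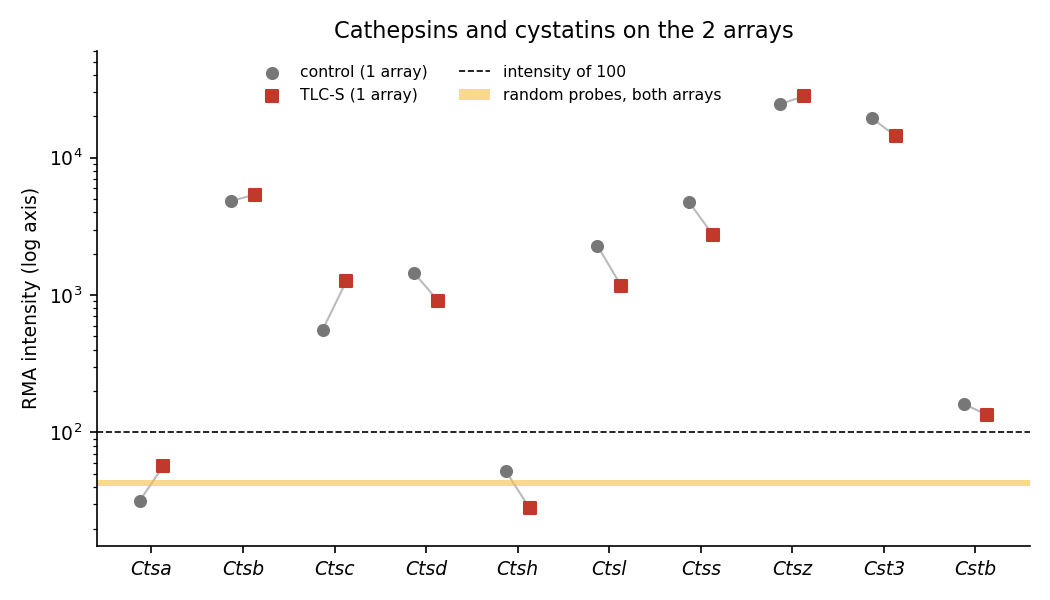
RMA intensity (log axis) of the target of each gene on the control array (grey circles) and the TLC-S array (red squares), with the intensity of 100 (dashed line) and the range between the random-probe readings of the arrays (yellow band). Ctsa and Ctsh lie under 100 on both arrays, near the random probes, and the other 8 genes lie above 100; intensities of different targets depend on their probes and are not ranked against each other.

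Cathepsin B, the activator of trypsinogen, read 4845 in control and 5376 in TLC-S. This was 1.11-fold higher, a log2 ratio of 0.15 that turned to -0.03 after loess subtraction, so Ctsb sat at the middle of genes of its signal: 43% of the 500 genes nearest in mean signal had a lower ratio. Cathepsin L, which inactivates trypsinogen, read 2294 in control and 1168 in TLC-S. This was 1.96-fold lower, a log2 ratio of -0.97 that became -1.26 after loess subtraction. It lies just short of the 2-fold limit of the authors' down table, and 4.2% of the 500 genes nearest in signal had a lower ratio.

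The log2 ratio of Ctsl was thus 1.12 below that of Ctsb: the reading of the degrader relative to that of the activator was 2.18-fold lower in TLC-S than in control. A ratio of this kind does not depend on a constant scaling of either array. It was 2.35-fold after loess subtraction and 2.13-fold with 50 added to each intensity, both with Ctsl lower. The ratio describes unequal readings on these arrays, without replicates to show its error. Among the genes nearest in signal, log2 ratios had an SD of 0.70 for Ctsl and 0.56 for Ctsb. How often other pairs of genes lay this far apart was not tested. The ratio says nothing of the absolute level of either transcript or of the activity of either protease.

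The trypsinogens, the substrates of both proteases, had far larger differences. Prss1 read 5337 in control and 603 in TLC-S, Prss2 7536 and 856, and Prss3 15742 and 2183. Their log2 ratios were -3.15, -3.14 and -2.85, or -3.42, -3.39 and -3.01 after loess subtraction. Relative to Ctsb the trypsinogen readings were lower in TLC-S by 9.82-fold for Prss1, 9.77-fold for Prss2 and 8.002-fold for Prss3, and relative to Ctsl by 4.50-fold, 4.48-fold and 3.67-fold.

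Cathepsin S and cathepsin D were lower with Ctsl. Ctss, an endopeptidase best known for trimming the invariant chain in antigen-presenting cells, read 4762 in control and 2753 in TLC-S. This was 1.73-fold lower, a log2 ratio of -0.79 and of -1.01 after loess subtraction. Beside it, the 18 pan-leukocyte genes had a median log2 ratio of 0.14, or -0.16 after loess subtraction, and the 6 B lymphocyte genes one of -0.13, or -0.22; their part in the Ctss result was not tested. Ctsd, the main aspartic protease of lysosomes, which also processes other cathepsins, read 1445 in control and 909 in TLC-S. This was 1.59-fold lower, with log2 ratios of -0.67 and -0.97.

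Ctsd, Ctsl and Ctss were the 3 members past 1.5-fold lower. All cut within protein chains, as do Ctsb, Ctse and Lgmn, whose log2 ratios were 0.15, 0.16 and -0.15 (-0.03, -0.16 and -0.32 after loess subtraction). Each of the 3 was among the lowest 5% of the 500 genes nearest to it in signal (4.8%, 4.2% and 4% of them were lower still). Each stayed inside the central 95% of those genes, whose lower bounds were -1.004, -1.39 and -1.44. The width of that range includes any true differences among the genes and is no measure of replicate error.

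Cathepsin C (dipeptidyl peptidase I), which removes dipeptides from the amino end of proteins and activates serine proteases of immune granules, went the other way. It read 559 in control and 1271 in TLC-S. This was 2.27-fold higher, a log2 ratio of 1.18 that became 0.87 (1.83-fold) after loess subtraction. It stayed past 2-fold with median centring (1.12) and with 50 added to each intensity (1.12), and fell short of it under loess alone among the scalings tried. Of the 500 genes nearest in signal, 94.8% had a lower ratio. It is the 1 member in the authors' deposited table of higher targets, which gives it 2.27-fold, and 0 members were in the table of lower targets. The reading of Ctsl relative to Ctsc was 4.46-fold lower in TLC-S.

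The authors' deposited tables of Gene Ontology terms cover the genes of their TLC-S against control comparison. Ctsc is the 1 member in their tables of higher and lower targets, so no other member could be listed. It was listed in 5 of 468 biological processes, 11 of 97 cellular components and 5 of 106 molecular functions. One of these functions was hydrolase activity, with 125 of 1918 genes and a p-value of 0.00355 in the authors' deposited table. No term in those tables had lysosome in its name, and 0 members were found in the authors' deposited pathway table.

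Cathepsin Z, a carboxypeptidase also called cathepsin X or Y, read 24618 in control and 28014 in TLC-S. This was 1.14-fold higher, a log2 ratio of 0.19 that stayed 0.18 after loess subtraction. Ctsz thus stayed well within the range of genes of its signal, where 69.8% had a lower ratio.

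Cathepsins A and H were not above background. Ctsa, a carboxypeptidase that also protects beta-galactosidase and neuraminidase in the lysosome, read 31.8 in control and 56.9 in TLC-S. Ctsh, an aminopeptidase, read 52.4 in control and 28.1 in TLC-S. Both targets lay below 100 on both arrays, and 1 reading of each was under the random probes, so no fold is given for either. By measured value alone their log2 ratios were 0.84 and -0.90, which became 0.39 and -0.39 with 50 added to each intensity.

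The cystatins both read lower, by less than 1.5-fold. Cst3 read 19333 in control and 14349 in TLC-S, a log2 ratio of -0.43 (1.35-fold lower) and of -0.48 after loess subtraction. Cstb read 162 in control and 134 in TLC-S, a log2 ratio of -0.28 (1.21-fold lower) and of -0.45 after loess subtraction. Of the 500 genes nearest in signal, 17% were lower than Cst3 and 27% lower than Cstb. The Cstb target read only 3.62 and 3.30 times the random probes, and the central 95% of its 500 neighbours ran from -1.28 to 1.52.

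**Figure D2:**
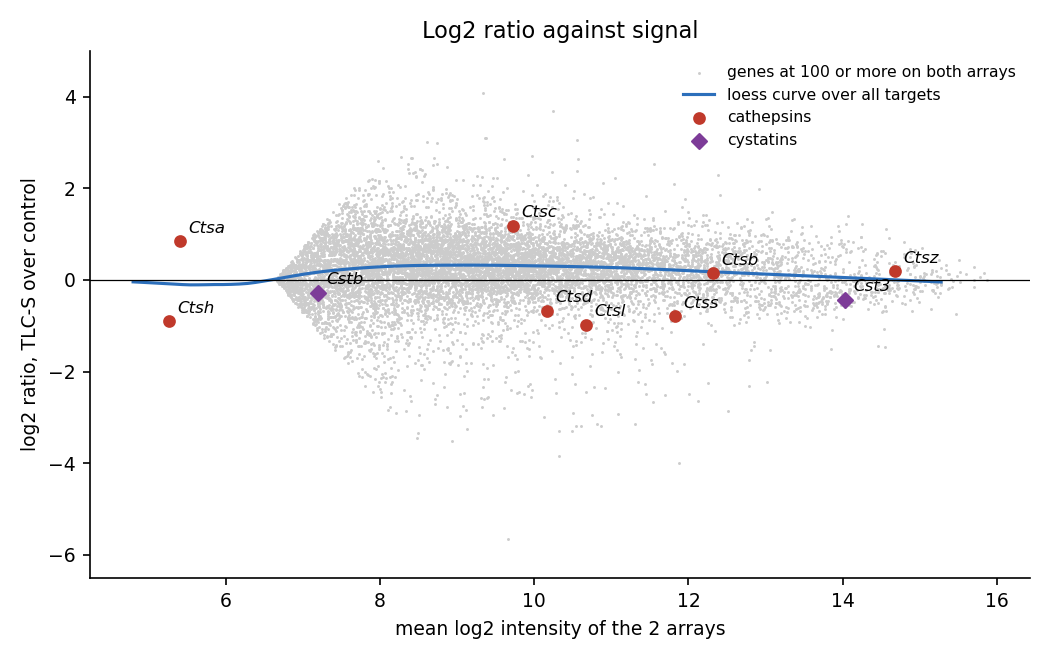
Log2 ratio (TLC-S over control) against mean log2 intensity for all genes at 100 or more on both arrays (grey), the 8 cathepsins (red circles) and the 2 cystatins (purple diamonds), with the loess curve over all targets (blue). Ctsd, Ctsl and Ctss lie below both 0 and the curve, Ctsc lies above both, and Ctsb lies above 0 but just under the curve.

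**Figure D3:**
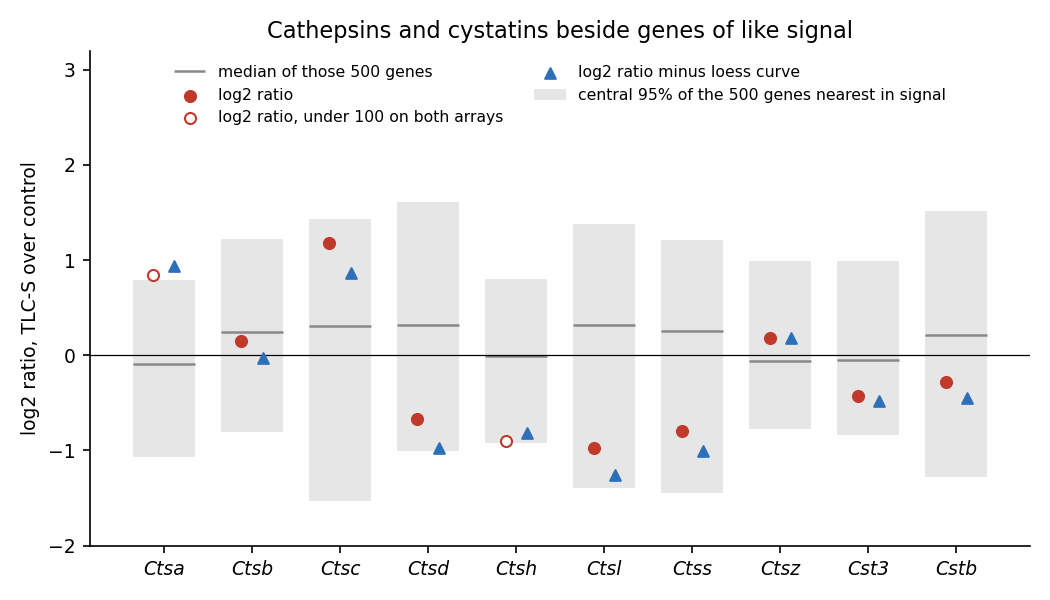
Log2 ratio of each gene as deposited (red circles, open where both arrays read under 100) and after loess subtraction (blue triangles), over the central 95% (grey bars) and median (grey lines) of the deposited log2 ratios of the 500 genes nearest in signal. All 8 genes at 100 or more lie inside their bar, Ctsb changes sign between the scales, and the other 7 keep theirs.

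The promoters of the 4 members at 100 or more and past 1.5-fold are shown because they include Ctsc, which was higher, and Ctsd, Ctsl and Ctss, which were lower. Each run is the 250 bases before the annotated start, 5′ to 3′ on the gene's strand, from RefSeq on assembly GRCr8, with motif matches in capitals.
Ctsc, chr1:151440799-151441048, plus strand: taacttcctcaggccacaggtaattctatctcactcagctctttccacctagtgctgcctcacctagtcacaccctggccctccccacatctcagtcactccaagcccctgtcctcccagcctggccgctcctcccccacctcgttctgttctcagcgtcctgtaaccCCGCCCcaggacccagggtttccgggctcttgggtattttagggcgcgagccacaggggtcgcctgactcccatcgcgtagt
Ctsd, chr1:206968822-206969071, minus strand: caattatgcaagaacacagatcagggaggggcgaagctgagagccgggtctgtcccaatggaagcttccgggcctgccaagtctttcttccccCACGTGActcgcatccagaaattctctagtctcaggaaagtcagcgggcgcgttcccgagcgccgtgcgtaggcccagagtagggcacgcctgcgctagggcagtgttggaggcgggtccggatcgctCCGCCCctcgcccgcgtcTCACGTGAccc
Ctsl, chr17:769854-770103, plus strand: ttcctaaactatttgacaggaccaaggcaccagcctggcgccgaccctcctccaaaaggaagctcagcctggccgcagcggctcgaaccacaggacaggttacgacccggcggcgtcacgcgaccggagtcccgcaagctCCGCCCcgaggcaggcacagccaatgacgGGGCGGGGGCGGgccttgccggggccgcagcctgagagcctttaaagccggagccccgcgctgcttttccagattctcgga
Ctss, chr2:185775146-185775395, plus strand: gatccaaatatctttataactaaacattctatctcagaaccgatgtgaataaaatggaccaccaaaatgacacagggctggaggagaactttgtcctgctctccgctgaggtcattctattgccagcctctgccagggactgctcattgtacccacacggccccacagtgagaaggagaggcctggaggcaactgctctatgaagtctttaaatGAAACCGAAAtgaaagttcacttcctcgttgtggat

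The letters searched on both strands were CACGTG (the E-box, the core of the element bound by Tfeb in lysosomal genes), TCACGTG (an E-box with the T that precedes it in that element, so each match is also an E-box), the full CLEAR element (the E-box with GT before it and AC after it, which contains both), GGGCGG (the GC box) and an interferon-type core (GAAA, any 2 bases, GAAA). The capitals mark 2 E-boxes and 1 GC box before Ctsd, 3 GC boxes before Ctsl, 1 GC box before Ctsc and 1 interferon-type core before Ctss. That core was picked after the Ctss promoter was read, so its match there says nothing. A promoter entry was matched for 9 of the 10 genes, all but Ctsb. The E-box was in 2 of these 9 (Ctsd and Cstb) and in 5.59% of all 33469 promoters of the same length, and the longer form in the same 2 of 9 and 2.79%. The full CLEAR element was in 0 of 9 and in 0.203% of all promoters. The GC box was in 7 of 9 and 30.5%, and the interferon-type core in 1 of 9 and 3.41%. Ctsd, Ctsl and Ctss shared none of these motifs across all 3, and the GC box was present before Ctsc as well as before Ctsd and Ctsl. All motifs were chosen after the expression values were seen. A match describes letters in the window and no site of binding.

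The other cathepsins and cystatins on the arrays were nearly all near background. Of 13 further cathepsins and relatives with a named target, only Ctse and Ctso reached 100 on both arrays. Ctse, an aspartic protease of endosomes, read 741 in control and 829 in TLC-S. Its log2 ratio was 0.16, and -0.16 after loess subtraction. Ctso read 208 and 210, with log2 ratios of 0.01 and -0.24, from a predicted RefSeq record. Of 12 further cystatins, kininogens and fetuins, 0 reached 100 on either array, and their intensities ran from 29.1 to 90.3.

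Among the other proteases of the lysosome, 7 of 8 genes with a target reached 100 on both arrays, with 1 past 1.5-fold upward and 3 downward on either scale. The shares over all such genes were 27.8% and 9.62%, or 15.2% and 16.4% after loess subtraction. Their median log2 ratio was -0.22, and -0.39 after loess subtraction. Lgmn, the asparaginyl endopeptidase that cuts cathepsins to their two-chain forms, read 6175 in control against 5549 with TLC-S (1.11-fold lower, 1.25-fold after loess subtraction). Dpp7, a dipeptidyl peptidase, read 2223 and 891 (2.50-fold lower, 3.06-fold after loess subtraction), and Tpp1, a tripeptidyl peptidase, 2330 and 1497 (1.56-fold lower, then 1.89-fold). At the other end, Napsa, an aspartic protease related to Ctsd, read 185 in control and 618 in TLC-S (3.34-fold higher, 2.69-fold after loess subtraction). Prcp, a carboxypeptidase, read 461 and 582, which was 1.26-fold higher but 1.01-fold after loess subtraction.

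Of 34 lysosomal glycosidases, lipases, sulfatases and activators with a target, 26 reached 100 on both arrays. Of these, 5 were past 1.5-fold upward and 2 downward, beside 27.8% and 9.62% of all such genes. The counts became 2 and 9 after loess subtraction, beside 15.2% and 16.4%, and the median log2 ratio moved from 0.04 to -0.25. Smpd1, the acid sphingomyelinase, read 3154 in control against 2075 with TLC-S (1.52-fold lower, 1.81-fold after loess subtraction). Acp2, the lysosomal acid phosphatase, read 377 and 781 (2.07-fold higher, 1.66-fold after loess subtraction), and Galns, a sulfatase, 1128 and 2005 (1.78-fold higher, then 1.46-fold).

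Genes that carry the enzymes to the lysosome mostly read higher on the deposited scale, less so after loess subtraction. Of 18 with a target, 17 reached 100 on both arrays and 15 of these were above 0, with 6 past 1.5-fold upward and 1 downward. Of all such genes 66.3% were above 0, and 27.8% and 9.62% passed 1.5-fold upward and downward. After loess subtraction the counts past 1.5-fold were 3 and 1, beside 15.2% and 16.4%. The median log2 ratio was 0.36, beside 0.25 for all genes at 100 or more. After loess subtraction it was 0.069, beside about 0 for those genes, with 10 of 17 above 0. The adaptor subunits Ap1g1 (437 in control and 902 in TLC-S, 2.06-fold) and Ap1m1 (606 and 1180, 1.95-fold) were the highest, at 1.65-fold and 1.57-fold after loess subtraction. Scarb2, the receptor of beta-glucocerebrosidase, was the lowest, at 5142 and 3354 (1.53-fold lower, 1.76-fold after loess subtraction), beside Vps26a of the retromer at 770 and 718 (1.07-fold lower, then 1.34-fold). The target of Igf2r, a mannose 6-phosphate receptor, was under 100 on both arrays.

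Of 6 regulators of lysosomal genes and signalling, all reached 100 on both arrays, with a median log2 ratio of 0.15, or -0.15 after loess subtraction. Mitf, a relative of the lysosomal regulator Tfeb, read 244 in control against 117 with TLC-S (2.08-fold lower, a log2 ratio of -1.06 that became -1.27 after loess subtraction). Tfe3, of the same family, read 317 and 414 (1.31-fold higher, then 1.05-fold). Mcoln1, the lysosomal calcium channel, read 279 and 445 (log2 ratio 0.67, then 0.36), and Rragd, a GTPase of nutrient sensing at the lysosome, 640 and 562 at the brighter of its 2 targets (1.14-fold lower, then 1.42-fold). The targets of Mitf, Tfe3, Mcoln1, Rragd, Prss3, Prcp and Ap1g1, like that of Ctso, come from predicted RefSeq records.

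**Figure D4:**
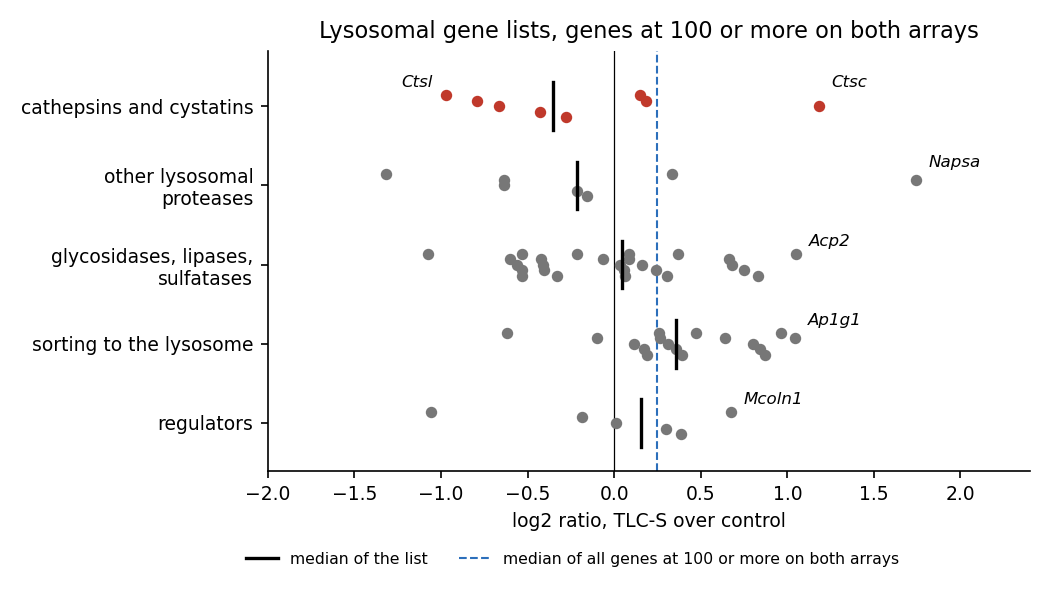
Log2 ratio (TLC-S over control) of each gene at 100 or more on both arrays in 5 lysosomal lists, with each list's median (black bar) and the median of 0.25 of all such genes (blue dashed line). The cathepsins and cystatins have a median of -0.35 and the sorting genes one of 0.36; the highest gene of each list is named, and for the cathepsins and cystatins the lowest as well.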

How the data were processed

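RNA of AR42J cells, untreated or given TLC-S, was hybridised to 1 one-colour array each, with Cy3 labelling per the labels. For each target the deposited value is 1 RMA intensity on a linear scale; RMA is named without a version in the submitters' processing notes; background step, scanner and build are not given in the sources used here. Their tables of higher and lower targets give a fold as a ratio and its log2, with a limit of 2, per the file headers. Their Gene Ontology tables give, as deposited, a p-value and the number of genes per term. The design's log2 ratios were computed from the linear intensities, as it allowed.

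The arrays hold 26419 targets: 9747 took their name from a RefSeq accession, 4950 through a gene ID and 1644 by the file's symbol, matched in RefSeq's GRCr8 gene list; 10078 stayed unnamed. A gene with several targets took the brightest. The loess curve (span 0.3, 3 robust iterations) ran over all targets, and curve and counting were tested on simulated data with 200 changed genes. The 500 genes nearest in mean log2 signal describe spread across genes, not error. Beside the members, the rule for named genes took every other cathepsin or cystatin at 100 or more, the 2 highest and 2 lowest genes of each other lysosomal list at 100 or more, and the trypsinogens, except 1 gene that is not reported here; Lgmn, Igf2r and the genes of the closing part were chosen after their values were seen. The members and lists were chosen with earlier results of these data known. No genes of like pattern are named, since 2 arrays give 1 ratio per gene, and the planned description of protein sequences was not run. Alternatives were median centring, loess, the series values, the authors' table of all targets, an offset of 50, the mean or dimmest target, and the limit of 100. Scripts used Python 3.11.15, numpy 2.4.6, pandas 2.3.3, statsmodels 0.14.6, matplotlib 3.10.9 and scipy 1.17.1.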

Additional observations from a re-analysis of the deposited data

How the results depend on the processing

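No paired analysis was possible because the arrays number 1 a group, which also leaves no replicate to omit. The loess and offset values of the Ctsl to Ctsb difference, and loess combined with the limit of 100, were added after the data were seen. Of 176 alternative values, 163 stayed within the spread used for the comparison (for a gene, the SD of its 500 neighbours in signal; for a list, the order-statistic interval of its median; for a count, 1.5 times) and 0 of those past 1.5-fold changed sign. As each member has 1 target, the choice of target repeats the main value by construction, and so do the series values. For the single members they hold, the authors' table and the limit of 100 repeat it too. Median centring only subtracts 0.06 from every ratio. The 163 thus include many values that could not move. By measured ratio, 2 of 10 members were at least 1.5-fold higher, including the dim Ctsa; the authors' table, an offset of 50, the limit of 100, and loess with that limit each left 1. The count at least 2-fold higher fell from 1 to 0 under loess, with or without the limit of 100. The count at least 2-fold lower rose from 0 to 1 with median centring (Ctsl, -1.04) and to 2 under loess, with or without the limit (Ctsl, -1.26, and Ctss, -1.01). Of the single members, only Ctsb changed sign, under loess, and only Ctsh moved by more than its spread, to -0.39 with the offset. The median of the sorting genes moved from 0.34 over all its genes to 0.053 under loess. That of the other cathepsins changed sign from -0.34 to 0.087 in the authors' table and with the limit of 100, which by construction keep 2 genes.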

Other observations

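Genes that act beside the cathepsins in other settings were read from lists put together after the data were seen. In the route by which class II molecules of the major histocompatibility complex are loaded, 3 of 9 genes were at 100 or more on both arrays. Cd74, the invariant chain that Ctss trims, read 513 in control against 276 with TLC-S (1.86-fold lower, 2.32-fold after loess subtraction). RT1-DMa, a chain of the peptide exchanger, read 281 and 181 (1.55-fold lower, then 1.86-fold), whereas Ifi30, a lysosomal thiol reductase, read 4089 and 6755 (1.65-fold higher, then 1.46-fold). RT1-DMb, the partner chain of RT1-DMa, read 45.4 in control and 250 in TLC-S, at least 2.50-fold higher against an intensity of 100. RT1-Db1, a class II chain, read 88.0 and 162, at least 1.62-fold higher on the same basis. These 5 genes of one route thus went both ways.

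Of 6 lysosomal membrane glycoproteins, 4 were at 100 or more on both arrays: Lamp2 read 4227 in control against 1882 with TLC-S (2.25-fold lower, 2.66-fold after loess subtraction), Lamp1 4326 and 2630 (1.65-fold lower, then 1.92-fold) and Scarb2 was given above, while Cd68, a relative of the Lamp proteins, read 983 and 1821 (1.85-fold higher, then 1.51-fold). Of 8 granule serine proteases that cathepsin C can activate, 0 reached 100 on either array, beside the higher Ctsc. Of the calpains and their partners, cysteine proteases of the cytosol, all 6 at 100 or more were above 0, as were 66.3% of all such genes, and their median log2 ratio was 0.34 beside 0.25 for those genes, and 0.077 after loess subtraction. Capn10 was the highest, at 330 in control against 566 with TLC-S (1.72-fold, then 1.37-fold). Of 7 clade B serpins, inhibitors of the cytosol, only Serpinb9 was at 100 or more on both arrays, at 218 and 253 (log2 ratio 0.22, then -0.06).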
